A study of Mus musculus with 23 samples.

Results

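The genes described here encode 5 chemokines through which dendritic cells draw T cells towards themselves: Ccl5, Ccl22, Cxcl9, Cxcl10 and Cxcl16. They were taken by name from the 13572 gene rows of the deposited count table, and all 5 had a row and counts. The cells were CD103+ type 1 conventional dendritic cells (cDC1), taken from melanomas by a sort for living cells with CD45, MHC-II, CD11c and CD103 but without CD11b, 6 days after subcutaneous injection of BRAFV600E melanoma cells into C57BL/6 wild-type mice. In the control group the cancer cells carried both cyclooxygenase genes, and in the other group, called PGE2-deficient here, the injected cells were Ptgs1/Ptgs2 knockouts. Prostaglandin E2 (PGE2) itself was not measured, and the cells of the wild-type hosts in both groups keep Ptgs1 and Ptgs2. The cancer cells of both groups come from BRAFV600E melanoma cells, and the labels give neither the number of knockout clones nor the age of the mice. Mice with dendritic cells lacking PGE2 receptors, which the growth protocol also mentions, were not analysed here. Smart-seq3 libraries, which read whole transcripts from minute amounts of RNA, were made from pools of 10 cells. Each group had 4 mice. Every mouse gave 3 pools except PGE2-deficient mouse 2, which gave 2, so that there were 12 control and 11 PGE2-deficient pools.

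Chemokines are small secreted proteins that bind receptors coupled to G proteins and guide migrating cells along gradients. CCL5 acts on receptors of effector T cells, NK cells and myeloid cells. CCL22 binds CCR4, which is carried by regulatory and helper T cells, and it is typically made by mature dendritic cells. CXCL9 and CXCL10 are induced by interferons and bind CXCR3 on activated T cells and NK cells. CXCL16 is made as a membrane-bound protein, can be shed by the protease ADAM10, and binds CXCR6 on effector and resident T cells. In tumours, cDC1 take up dying cells, present their antigens to CD8 T cells, and are known as a source of several of these ligands.

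Upstream sequences are shown for the members with an entry in the RefSeq promoter table (GRCm38.p6), which held Ccl22, Cxcl9 and Cxcl10, 3 of the 5. They are shown because Cxcl9 and Cxcl10 are neighbours with shared regulation by interferon in textbook accounts, while Ccl22 is not grouped with them. Each runs 5′ to 3′ on the strand of the gene, and capitals mark matches to the motifs searched. For Cxcl9 (chr5:92328080-92328329, minus strand) and Cxcl10 (chr5:92348890-92349139, minus strand) all 250 bases before the start are printed. For Ccl22 (chr8:94745434-94745589, plus strand) the 156 bases before the first annotated transcript are printed.
Cxcl9: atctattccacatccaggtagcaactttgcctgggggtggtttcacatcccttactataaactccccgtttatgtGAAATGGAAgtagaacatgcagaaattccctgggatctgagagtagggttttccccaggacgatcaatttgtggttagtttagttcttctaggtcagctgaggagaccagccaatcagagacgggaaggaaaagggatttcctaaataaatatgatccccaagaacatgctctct
Cxcl10: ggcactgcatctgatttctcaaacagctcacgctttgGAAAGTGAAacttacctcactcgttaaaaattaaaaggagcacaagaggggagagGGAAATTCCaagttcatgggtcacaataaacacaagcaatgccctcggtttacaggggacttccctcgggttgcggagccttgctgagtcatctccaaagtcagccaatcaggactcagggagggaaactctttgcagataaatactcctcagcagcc
Ccl22: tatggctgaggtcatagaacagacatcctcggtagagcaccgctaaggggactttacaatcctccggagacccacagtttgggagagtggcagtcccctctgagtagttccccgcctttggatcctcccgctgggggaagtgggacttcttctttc

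The 250 bases before each start were searched on both strands for 4 motifs. The interferon response element core, spelled GAAANNGAA, matched once in Cxcl9, beginning 175 bases before the start, and once in Cxcl10, beginning 213 bases before the start. An NF-kB motif spelled GGANNTTCC matched once in Cxcl10, beginning 158 bases before the start. No letters of the gamma-activated site (TTCNNNGAA) or the cyclic AMP response element (TGACGTCA) were found in any of the 3 windows, and Ccl22 held no match to any of the 4. Among all 32851 windows of the table, 7.13% held the first motif, 3.59% the NF-kB motif, 7.02% the gamma-activated site and 1.55% the cyclic AMP response element. Only the spellings given were searched, so other forms of these motifs, also in the printed stretches, were not counted. A match describes letters in this window and is not a measured binding site.

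Pools held 25571 to 98554 counts (median 49506), and mice 101017 to 230478 after their pools were summed. Mean pool totals were 45240 ± 6823 in the control and 55015 ± 14743 in the PGE2-deficient group (SD over mice, n = 4; exact permutation test, two-sided, p = 0.286). All 12 listed cDC1 markers were detected in both groups, with 74 to 221 of their counts in control and 191 to 375 in PGE2-deficient pools. They summed to 3867 ± 777 and 6111 ± 1017 CPM (SD, n = 4 mice; exact permutation test, two-sided, p = 0.0286). Other cells were represented unevenly. Macrophage and monocyte markers had 318 counts in control and 82 in PGE2-deficient pools (exact permutation test of their CPM per mouse, two-sided, p = 0.314). Pool 2 of control mouse 2 and pool 1 of control mouse 4 held 120 and 149 of the 318. With p from the same test, cDC2 markers had 140 and 34 counts (p = 0.0286) and plasmacytoid dendritic cell (pDC) markers 107 and 7 (p = 0.171). T cell receptor and CD3 genes had 11 and 56 (p = 0.257). Counts sufficed to test 2076 genes, and 2.7% of them were called higher and 2.26% lower in the PGE2-deficient group (edgeR quasi-likelihood test, adjusted p under 0.05), a split that upper quartile scaling changed from 56 higher and 47 lower to 45 and 67.

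Ccl5 was nearly silent in cDC1 of control tumours and abundant in part of the pools from every mouse with a PGE2-deficient tumour. Counts per pool in control mice 1 to 4 were 0, 0 and 1, then 0, 0 and 1, then 0, 0 and 2, then 0, 5 and 2. In PGE2-deficient mouse 1 they were 8, 1 and 80, and in mouse 2 they were 182 and 229. Mouse 3 had 1, 274 and 1, and mouse 4 had 25, 0 and 39. Thus 7 of 11 PGE2-deficient pools lay above the highest control pool, while the other 4, from mice 1, 3 and 4, held 0 or 1 count, within the control range.

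**Figure D1:**
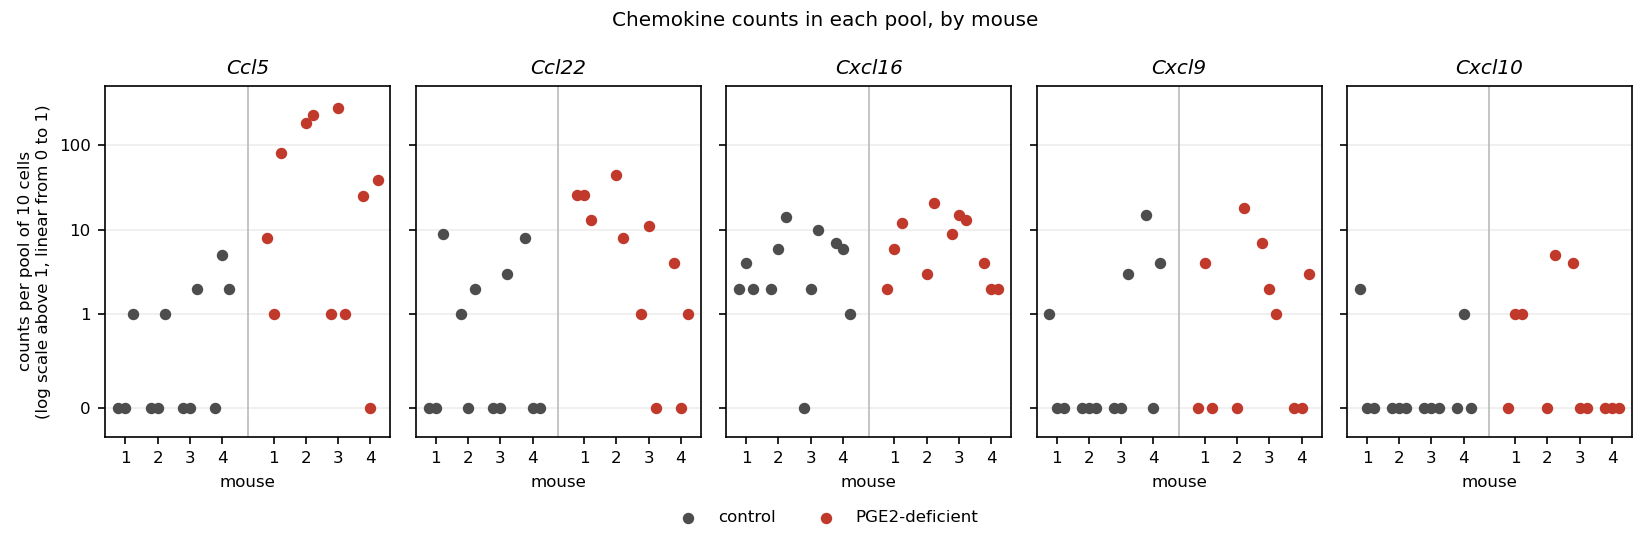
Counts of the 5 chemokine genes in each pool of 10 cells (points), by mouse number on the x axis and on a y axis that is logarithmic above 1 count and linear from 0 to 1, for control (grey) and PGE2-deficient (red) tumours. Ccl5 reached at most 5 counts in a control pool and up to 274 in a PGE2-deficient pool, whereas Cxcl16 had counts in 11 of 12 and 11 of 11 pools at similar levels.

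Per mouse, Ccl5 stood at 11.5, 8.604, 20.1 and 54.9 CPM (the count of a gene relative to the scaled total of its mouse) in control mice 1 to 4. In PGE2-deficient mice 1 to 4 it stood at 867, 4875, 1408 and 528 CPM. All 4 PGE2-deficient mice lay above all 4 control mice, a separation seen in 4.91% of the tested genes in this direction. The mean rose from 23.8 ± 21.3 to 1920 ± 2003 CPM (SD, n = 4 each), a ratio of 80.8. The ratio was 39.3 without PGE2-deficient mouse 2 and 143 without control mouse 4, the mice with the highest level in their groups. On the log2 scale the fold change came to 6.16 ± 0.70 (SE, edgeR adjusted p = 1.54e-05), and the exact permutation test of log2(CPM + 10) gave a two-sided p = 0.0286, the smallest that 4 mice against 4 allow. In such pooled RNA, fewer cells of a kind and less RNA per cell cannot be told apart. The call was lost with limma-voom over the single pools (log2 fold change 3.24, adjusted p = 0.365), and without pool 2 of PGE2-deficient mouse 3 Ccl5 did not pass the count filter (5.81 in the fit without a filter).

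Ccl5 (ENSMUSG00000035042) lies on chromosome 11 from 83525778 to 83530518 (GRCm38, minus strand), is protein-coding, and has at most 3 exons in a transcript. The 3 richest pools held 81.5% of the counts of its PGE2-deficient group and came from mice 2 and 3. After each pool was thinned to the depth of the smallest, a Ccl5 count would be expected in 4.06 of 12 control pools and 8.04 of 11 PGE2-deficient pools, against 5 and 10 without thinning. Detection thus differed in the same direction at equal depth.

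Ccl22, the ligand of CCR4, had a higher mean in the PGE2-deficient group, and this came from 2 of its 4 mice. Control pools held 0, 0 and 9 counts in mouse 1, 1, 0 and 2 in mouse 2, 0, 0 and 3 in mouse 3, and 8, 0 and 0 in mouse 4. PGE2-deficient pools held 26, 26 and 13 in mouse 1, 45 and 8 in mouse 2, 1, 11 and 0 in mouse 3, and 4, 0 and 1 in mouse 4. In mice 1 and 2, 4 of the 5 pools exceeded the highest control pool, as did 1 pool of mouse 3, with 11 counts. Summed per mouse, mice 3 and 4 overlapped with the controls. The 4 control mice stood at 104, 25.8, 30.1 and 62.7 CPM, and the PGE2-deficient mice at 633, 629, 61.2 and 41.3 CPM.

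The mean Ccl22 level was 55.5 ± 36.0 CPM in the control and 341 ± 335 CPM in the PGE2-deficient group (SD, n = 4). Ccl22 failed the count filter, and the edgeR fit of all 13311 genes with a count gave it a log2 fold change of 2.49 ± 0.37 (SE, adjusted p = 1.17e-08). That fit, in which 0.826% of the genes were called higher, gave each gene the spread between mice typical of its abundance. The p thus does not reflect how unevenly Ccl22 was distributed over mice. With a count minimum of 5 the adjusted p was 0.0279. The call was lost with DESeq2 (adjusted p = 0.119), with robust dispersion (adjusted p = 0.573) and with limma-voom over pools (1.58, adjusted p = 0.317). The exact permutation test over mice gave p = 0.229. The gene (ENSMUSG00000031779) lies on chromosome 8 from 94745590 to 94751699 (plus strand), is protein-coding and has at most 4 exons in a transcript.

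Cxcl9 was detected in 4 of 12 control and 6 of 11 PGE2-deficient pools and did not pass the test. Its control counts were 1, 0 and 0 in mouse 1, 0 in all pools of mouse 2, 0, 0 and 3 in mouse 3, and 15, 0 and 4 in mouse 4. Its PGE2-deficient counts were 0, 4 and 0 in mouse 1, 0 and 18 in mouse 2, 7, 2 and 1 in mouse 3, and 0, 0 and 3 in mouse 4. In each group 1 pool held most of the counts, pool 1 of control mouse 4 with 65.2% and pool 3 of PGE2-deficient mouse 2 with 51.4%. That control pool was also rich in macrophage markers, with 149 of their counts, 55 of them from the C1q genes. What these markers contribute to its Cxcl9 counts was not tested.

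The levels of Cxcl9 per mouse were 11.5, 0, 30.1 and 149 CPM in control mice and 39.0, 214, 51.0 and 24.8 CPM in PGE2-deficient mice, so the groups overlapped. A count of 0 in control mouse 2 allows up to 25.8 CPM, taking 3 counts as the limit. The log2 fold change was 0.49 ± 0.50 (SE, edgeR without a count filter, adjusted p = 0.788; exact permutation p = 0.343). It turned to −0.37 without PGE2-deficient mouse 2 and to −0.58 without pool 3 of that mouse, and was 2.41 (adjusted p = 0.101) without control mouse 4.

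Cxcl10 had the fewest counts, with 3 in the control and 11 in the PGE2-deficient group. Control counts were 2 in pool 1 of mouse 1 and 1 in pool 2 of mouse 4, and 0 elsewhere. PGE2-deficient counts were 1 in each of pools 2 and 3 of mouse 1, 5 in pool 3 of mouse 2 and 4 in pool 1 of mouse 3, and 0 in all pools of mouse 4. The levels were 23.01, 0, 0 and 7.84 CPM against 19.5, 59.3, 20.4 and 0 CPM. Both groups contained mice without a count, and a difference was not detectable at this depth (log2 fold change 1.54 ± 1.05, SE, edgeR without a count filter, adjusted p = 0.662; exact permutation p = 0.371). Values of 0 allow up to 25.8 and 30.1 CPM in control mice 2 and 3 and up to 24.8 CPM in PGE2-deficient mouse 4. The limits cover counting error only.

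Cxcl9 (ENSMUSG00000029417) and Cxcl10 (ENSMUSG00000034855) are neighbours on chromosome 5 (minus strand), at 92321347 to 92328079 and 92346638 to 92348889, with 18558 bases between them. Both are protein-coding with at most 4 exons in a transcript. Art3, on the other strand, overlaps Cxcl10 but had 1 count in the whole table. Whether counting used strand is not given in the sources used here.

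Cxcl16 was the steadiest of the chemokines. It had counts in 11 of 12 control pools (0 to 14, median 3) and in all 11 PGE2-deficient pools (2 to 21, median 6). The control mice stood at 92.0, 189, 120 and 110 CPM and the PGE2-deficient mice at 195, 285, 189 and 66.0 CPM. The lowest and the highest of the 8 mice both belonged to the PGE2-deficient group. Means were 128 ± 42.6 and 184 ± 89.8 CPM (SD, n = 4), and the log2 fold change of 0.47 ± 0.37 (SE) did not pass the edgeR test (adjusted p = 0.555; exact permutation p = 0.486).

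Cxcl16 (ENSMUSG00000018920) lies on chromosome 11 from 70453983 to 70459984 (minus strand), is protein-coding and is overlapped by Zmynd15 on the other strand. Zmynd15 had 34 counts in the table and Cxcl16 56 in control and 89 in PGE2-deficient pools, and their reads could not be told apart by strand here. Of the enzymes that act on these chemokines, Adam10 had 23 and 25 counts in the 2 groups and Adam17 17 and 17, which failed the count filter. Without a filter neither was called (−0.03 and −0.26, edgeR adjusted p = 0.986 and 0.942). Dpp4, the peptidase that trims and inactivates CXCL9 and CXCL10, was tested and stood at 217 ± 53.0 and 225 ± 40.9 CPM (SD, n = 4; log2 fold change 0.02, edgeR adjusted p = 0.971).

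**Figure D2:**
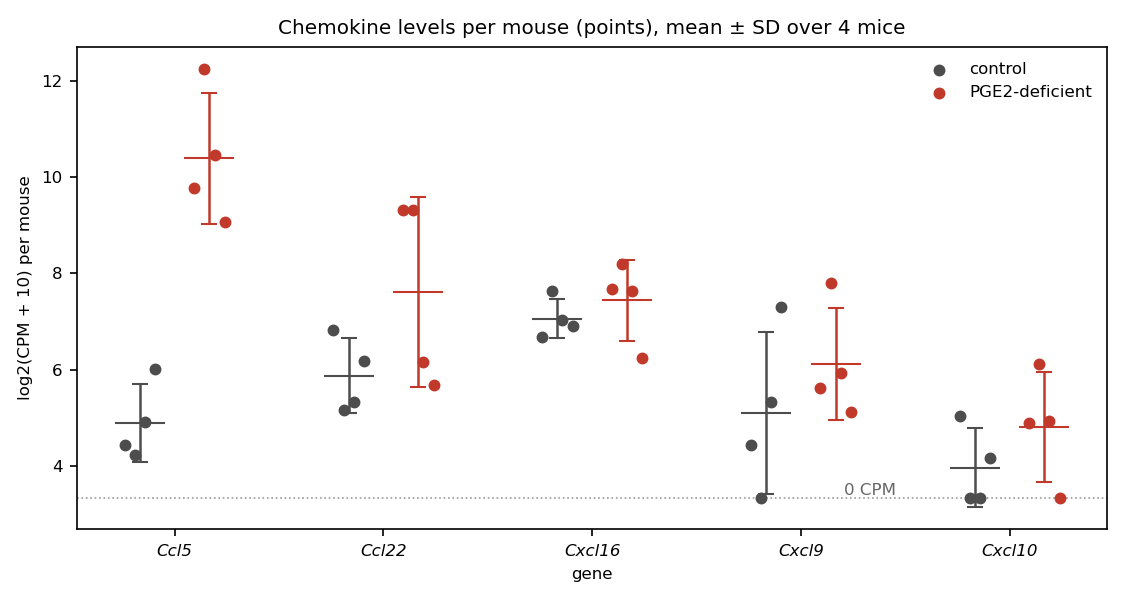
Level of each chemokine gene per mouse as log2(CPM + 10), with a point per mouse and the mean ± SD over 4 mice per group; the dotted line marks 0 CPM. The groups are apart for Ccl5 and overlap for Ccl22, Cxcl16, Cxcl9 and Cxcl10.

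Per length, the order of the levels differed between groups. In control tumours it ran from Cxcl16 (42.3 ± 14.1 CPM per kb of exon, SD, n = 4) through Ccl5 (24.8 ± 22.2), Ccl22 (23.9 ± 15.5) and Cxcl9 (15.8 ± 22.8) to Cxcl10 (3.42 ± 4.82). No neighbours in that order differed by more than the larger SD of the pair. Without division by length the control order was Cxcl16 (128 CPM), Ccl22 (55.5), Cxcl9 (47.6), Ccl5 (23.8) and Cxcl10 (7.71). In PGE2-deficient tumours Ccl5 came first with 2000 ± 2087 CPM per kb, followed by Ccl22 with 147 ± 144, Cxcl16 with 60.8 ± 29.7, Cxcl9 with 27.2 ± 29.3 and Cxcl10 with 11.01 ± 11.04. There the step from Cxcl16 to Cxcl9 exceeded the larger SD and the other steps did not. Ccl5 exceeded Ccl22, and Cxcl9 exceeded Cxcl10, in 4 of 4 mice, but Ccl22 exceeded Cxcl16 in 2 of 4.

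Several of the chemokines were often detected in the same pool. All 5 were found together in 3 of 11 PGE2-deficient pools (pool 2 of mouse 1, pool 3 of mouse 2 and pool 1 of mouse 3) and in 0 of 12 control pools, where the most was 4 in 1 pool. Ccl5 and Ccl22 shared 9 PGE2-deficient pools, with 1 pool holding Ccl5 alone and 1 holding neither. In control pools they shared 3, with 2 pools for each alone and 5 for neither. These counts follow the number of pools in which each gene was detected and are a description, not a test.

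The amounts of Ccl5 and Ccl22 went together in some pools and not in others. Over the 11 PGE2-deficient pools their levels had a Spearman correlation of 0.56, and 0.59 after the mean of each mouse was subtracted. Single pools went apart: pool 2 of mouse 3 had 274 Ccl5 and 11 Ccl22 counts, and pools 1 and 2 of mouse 1 had 8 and 1 Ccl5 counts with 26 Ccl22 counts each. Cxcl9 and Cxcl10 had a correlation of 0.57 over the same pools (0.64 within mice) and shared 3 pools, with 3 for Cxcl9 alone, 1 for Cxcl10 alone and 4 for neither. Cxcl16 was at 0.59 with Cxcl10 (0.53 within mice), 0.45 with Ccl5 (0.64), 0.43 with Cxcl9 (0.54) and 0.06 with Ccl22 (0.03). Ccl22 and Cxcl9 were at −0.26, Ccl22 and Cxcl10 at 0.04, and Ccl5 was at 0.14 with Cxcl9 and 0.13 with Cxcl10. Over the 12 control pools Ccl5 and Ccl22 were at 0.18 and Cxcl9 and Cxcl10 at 0.07. All pools of a mouse share a tumour and a preparation, and depth differs between pools, so these values carry no p.

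The pools rich in Ccl5 and Ccl22 were also rich in transcripts of mature dendritic cells, the activated state that migrates to lymph nodes. Over PGE2-deficient pools the summed mature dendritic cell markers correlated with Ccl5 at 0.74 and with Ccl22 at 0.72 (Spearman, 11 pools), against 0.08 for Cxcl9, and 0.29 for both Cxcl10 and Cxcl16. Fscn1, an actin-bundling protein of mature dendritic cells, was at 0.72 with Ccl5 and 0.53 with Ccl22. Ccr7, another marker of the list, had the opposite order over these pools, at 0.32 with Ccl5 and 0.22 with Ccl22 against 0.70 with Cxcl9 and 0.61 with Cxcl10. Il12b, a subunit of interleukin 12, was at 0.77 with Ccl22 and 0.26 with Ccl5. Xcr1, the chemokine receptor that marks cDC1, ran the other way, at −0.58 with Ccl5 and −0.78 with Ccl22. In control pools, where both chemokines were low, the marker sum was at 0.51 with Ccl5, 0.48 with Ccl22 and 0.66 with Cxcl16 (12 pools).

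Pools with many marker counts differed in Ccl5 between groups, but their marker counts reached higher in the PGE2-deficient than in the control group. With 100 marker counts as a dividing line, chosen after the values were seen, 4 control pools lay above it with 117 to 166 marker counts and 0 to 5 Ccl5 counts (8 in all). Above the same line were 9 PGE2-deficient pools with 121 to 312 marker counts and 1 to 274 Ccl5 counts (839 in all). Those within the marker range of the 4 control pools had 121, 138, 147 and 149 marker counts. They held 25, 39, 1 and 274 Ccl5 counts, in that order. The 2 PGE2-deficient pools below it, pool 3 of mouse 3 and pool 2 of mouse 4, had 1 and 0 Ccl5 counts. For Ccl22 the pools above the line held 13 counts in the control and all 135 counts in the PGE2-deficient group. The marker sum was 1745 ± 601 CPM in control and 3856 ± 2108 CPM in PGE2-deficient mice (SD, n = 4; exact permutation test, two-sided, p = 0.114), with ranges that overlapped (989 to 2306 and 1873 to 6263 CPM), and its part in the difference in Ccl5 was not tested.

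**Figure D3:**
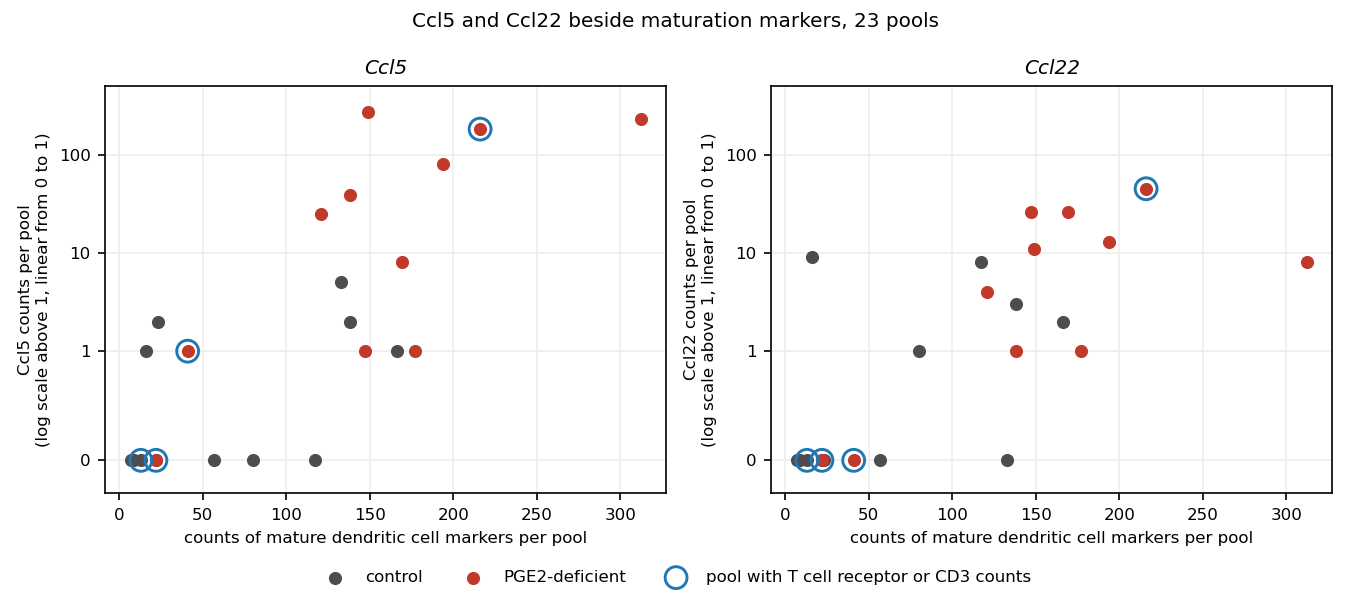
Counts of Ccl5 (left) and Ccl22 (right) per pool on a y axis that is logarithmic above 1 and linear from 0 to 1, against the summed counts of 14 detected mature dendritic cell markers on the x axis, for 23 pools; blue rings mark pools with counts of Cd3d, Cd3e, Cd3g, Trac, Trbc1 or Trbc2. Control pools with 117 to 166 marker counts stayed at 5 Ccl5 counts or fewer, and 3 of the 4 ringed pools lie at the low end of both axes.

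T cells and NK cells also make Ccl5, so their transcripts were counted in each pool. The 6 genes Cd3d, Cd3e, Cd3g, Trac, Trbc1 and Trbc2 of the T cell receptor and CD3 had counts in 1 control pool (11 counts, in pool 2 of mouse 1) and in 3 PGE2-deficient pools (14, 13 and 29 counts, in pool 2 of mouse 2, pool 3 of mouse 3 and pool 2 of mouse 4). Ccl5 counts in those pools were 0 in the control pool and 182, 1 and 0 in the others. The 8 of 11 PGE2-deficient pools with 0 counts of these genes held 78.2% of the Ccl5 counts of the group, with 229 and 274 in the highest. Some of these pools held other T and NK cell transcripts: the pool with 274 Ccl5 counts (pool 2 of PGE2-deficient mouse 3) had 3 counts of Cd247, the zeta chain of the CD3 complex, and 2 of Gzmb, a granule protease of killer cells. Leaving out the 4 pools, which was tried once the data had been seen, the log2 fold change of Ccl5 was 6.36 (edgeR adjusted p = 1.00e-05) and that of Ccl22 2.02 (adjusted p = 0.000881, without a count filter). Which cells of a pool the Ccl5 counts came from was not tested.

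The wider list of T and NK cell markers had 141 counts in control and 262 in PGE2-deficient pools, of which Klrk1, present in pools of both groups throughout, gave 123 and 171. The other 13 markers with a row had 18 and 91 counts, and 5 of the 13 had no count in control pools, 1 in PGE2-deficient pools. Gzmb had 0 and 19 counts, and Cd4 had 0 in both groups. Summed per mouse, these 13 ranged from 7.84 to 138 CPM in control mice and from 0 to 297 CPM in PGE2-deficient mice. They had 15 and 1 counts in the pools of PGE2-deficient mouse 2, which held 182 and 229 Ccl5 counts, and 5 in the pool with 274. Without the 7 pools that held 3 or more of these counts, also an alternative added later and one that leaves out all of PGE2-deficient mouse 3, Ccl5 had a log2 fold change of 6.50 (edgeR adjusted p = 6.56e-05) with 3 PGE2-deficient mice left. Without 5 control pools with 10 or more counts of C1q genes or of pDC markers it was 6.73 (adjusted p = 0.000384), and Cxcl9 stood at 1.84 (adjusted p = 0.384).

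**Figure D4:**
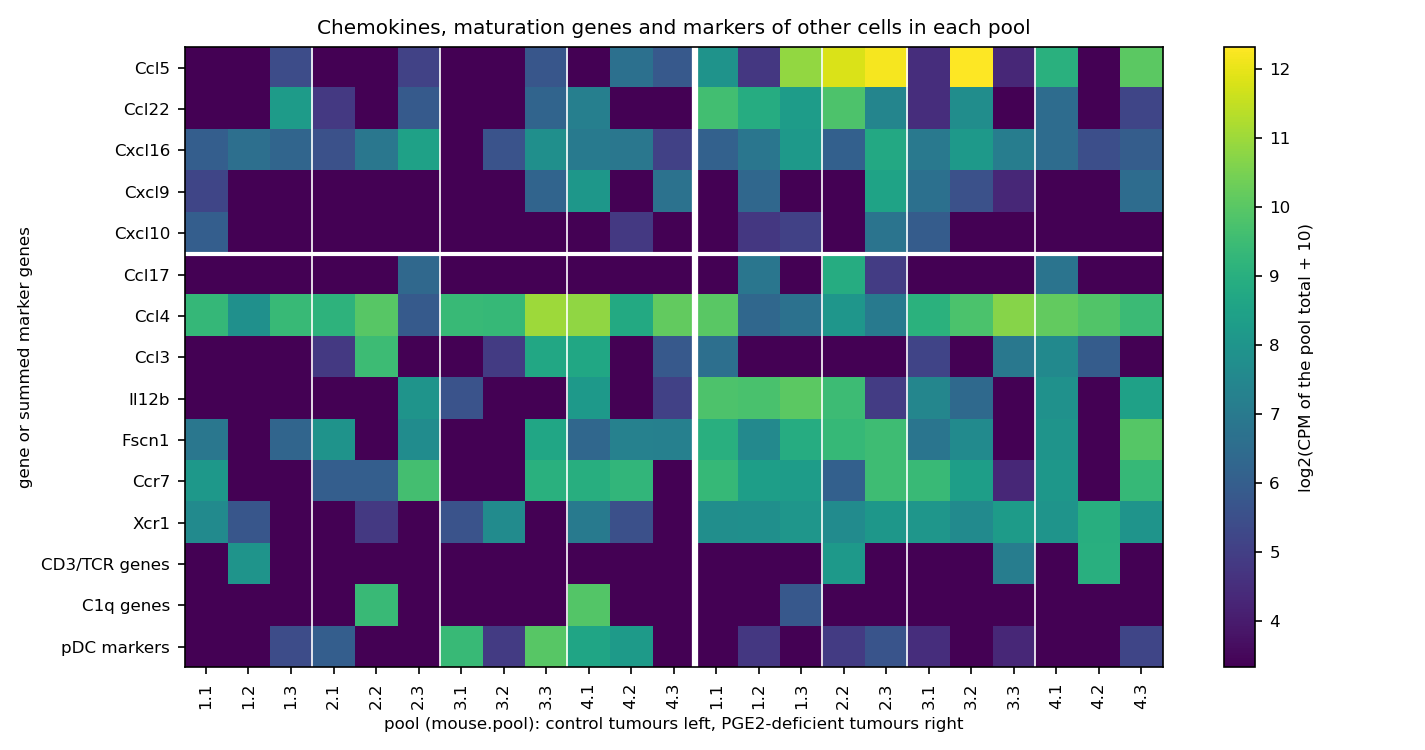
Level of the 5 chemokine genes (top rows) and of other chemokine, maturation and marker genes in each of 23 pools as log2(CPM of the pool total + 10), pools ordered by mouse and labelled mouse.pool. Ccl5 is brightest in pools 2.2, 2.3 and 3.2 of the PGE2-deficient group, of which 2.2 has counts of the 6 genes summed as CD3/TCR in the plot (Cd247 is not among them), and the C1q and pDC signal lies mainly in control pools.

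Among the other chemokine ligands, those that passed the count filter were not called. Of the 37 listed ligand genes 15 had a row and 4 passed the count filter. Of these 4, Ccl5 was called higher and 3 were not called (median log2 fold change 0.02, against 0.01 over all tested genes). Over all tested genes 2.7% were called higher and 2.26% lower, so 3 genes without a call say little about the ligands. Ccl4, an inflammatory chemokine of the same CC family and the most abundant ligand of the control group, stood at 1046 ± 428 and 758 ± 513 CPM (SD, n = 4; log2 fold change −0.42, edgeR adjusted p = 0.584). It changed sign to 0.07 without the pools with C1q or pDC markers. Ccl3, its close relative, stood at 185 ± 141 and 48.7 ± 43.2 CPM (−1.81, adjusted p = 0.115; called in 2 of 38 alternatives, both with a lower value in the PGE2-deficient group). Ccl17, the other ligand of CCR4, failed the count filter, with 3 counts in 1 control pool and 36 counts in 4 PGE2-deficient pools, 24 of them in the pool with the most Ccl22. In the fit without a filter, whose p ignores the spread of single genes, Ccl17 was called higher (3.41, edgeR adjusted p = 0.000945), with 6.45 ± 12.9 and 99.1 ± 134 CPM and overlapping mice. The other ligands that failed the filter, apart from the members, went both ways. Ccl2 (9 counts in control and 18 in PGE2-deficient pools), Ccl7 (4 and 22) and Cxcl2 (16 and 43) had more in the PGE2-deficient group. Ccl6 (72 and 14), Ccl9 (24 and 0), Ccl27a (3 and 0) and Pf4 (6 and 1) had fewer there. These genes, Ccl3 and Ccl17 are named here after their values were seen.

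Among 23 listed chemokine receptors, 12 had a row and 3 passed the count filter. Xcr1 was called higher, from 73.3 ± 46.5 to 318 ± 59.1 CPM (2.16 ± 0.38, edgeR adjusted p = 0.00242), and had counts in 7 of 12 control and 11 of 11 PGE2-deficient pools. Its call was lost without the pools with C1q or pDC markers (2.00, adjusted p = 0.0802) and without those with T and NK cell markers other than Klrk1 (1.81, adjusted p = 0.0831). Ccr7, which leads mature dendritic cells to lymph nodes and was the most abundant receptor, stood at 290 ± 153 and 410 ± 96.3 CPM and was not called (0.45, adjusted p = 0.489). The median log2 fold change of the 3 was 1.08, against 0.01 over all tested genes, of which 2.7% were called higher. Cxcr3, the receptor of CXCL9 and CXCL10, had 2 and 8 counts and failed the count filter (log2 fold change 1.5 without a filter, edgeR adjusted p = 0.722).

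Genes of the interferon route, which drives Cxcl9 and Cxcl10, were more often higher than lower in the PGE2-deficient group. Of 11 tested members 2 were called higher and none lower, 8 had a positive log2 fold change and the median was 0.63. Over all tested genes 2.7% were called higher and 2.26% lower, 50.7% were positive and the median was 0.01. Irf8, a transcription factor needed for cDC1 to form, was 1 of those called higher, at 837 ± 296 and 1510 ± 205 CPM (SD, n = 4; 0.85 ± 0.21, SE, edgeR adjusted p = 0.0215). It was no longer called, at 0.68 to 0.85, when control mouse 2 or 4 or PGE2-deficient mouse 1 or 4 was left out. The call was also lost without the pools with C1q or pDC markers (adjusted p = 0.123) and without those with T cell receptor or CD3 counts (adjusted p = 0.0586). Irf1, a transcription factor induced by interferon, stood at 65.8 ± 48.0 and 249 ± 202 CPM and was not called (1.82, adjusted p = 0.0795), though 4 of 43 alternatives called it higher.

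The NF-kB route, which acts on Ccl5 and Ccl22 in activated dendritic cells, had 5 tested members. None was called by edgeR (0 also at an unadjusted p under 0.05, median log2 fold change −0.20). Of all 2076 tested genes 2.7% were called higher and 2.26% lower, and 389 had an unadjusted p under 0.05. With 5 genes, 0 calls therefore do not show the route to be unchanged. DESeq2 also called 0 of 6 tested and limma-voom 0 of 5, each with 1 member at an unadjusted p under 0.05. Over all genes DESeq2 called 50 higher and 58 lower, and limma-voom 62 and 79. Relb, the subunit typical of mature dendritic cells, failed the count filter with 28 and 80 counts, or 65.9 ± 11.98 and 189 ± 115 CPM (SD, n = 4), and was called higher in the fit without a filter (1.39, edgeR adjusted p = 0.0355). That p ignores the spread of single genes, and the mice overlapped (control up to 80.3 CPM, PGE2-deficient from 66.3 CPM). The PGE2 and cyclic AMP route had 3 tested members, all with negative values (median −0.87). Over all tested genes the median was 0.01, 50.7% were positive and 2.26% were called lower. Crem, a cyclic AMP-responsive transcription factor, fell from 329 ± 72.2 to 158 ± 59.2 CPM (−1.08 ± 0.30, adjusted p = 0.0448), a call lost in 28 of 46 alternatives, among them 6 of the 8 fits without a mouse. Ptger4, which encodes the PGE2 receptor EP4, had 31 and 24 counts, failed the count filter and was not called without it (−0.53, edgeR adjusted p = 0.788).

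Genes whose pool pattern was most like that of each member were sought over the 11 PGE2-deficient pools among 2578 genes with at least 30 counts there. For Ccl5 they were Serpinb6b (Spearman 0.91), a protease inhibitor that is also among the listed maturation markers, Ramp3 (0.86), Tap1 (0.84), the peptide transporter of MHC class I loading, Txndc17 (0.80) and Pfkfb3 (0.80). For Ccl22 they were Cox4i1 (0.86), Adam8 (0.86), Klrb1b (0.85), Spty2d1 (0.84) and N4bp2l1 (0.84). For Cxcl9 they were Mydgf (0.89), Sptlc2 (0.88), Rpl10 (0.85), Lmnb1 (0.85) and Cfdp1 (0.81), and for Cxcl16 Ccz1 (0.89), Ndufa1 (0.87), Napa (0.86) and Atp5e (0.78). No gene was shared between these lists. With 11 pools and this many genes, high values are found for any gene, so the lists describe likeness in these pools alone.

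**Figure D5:**
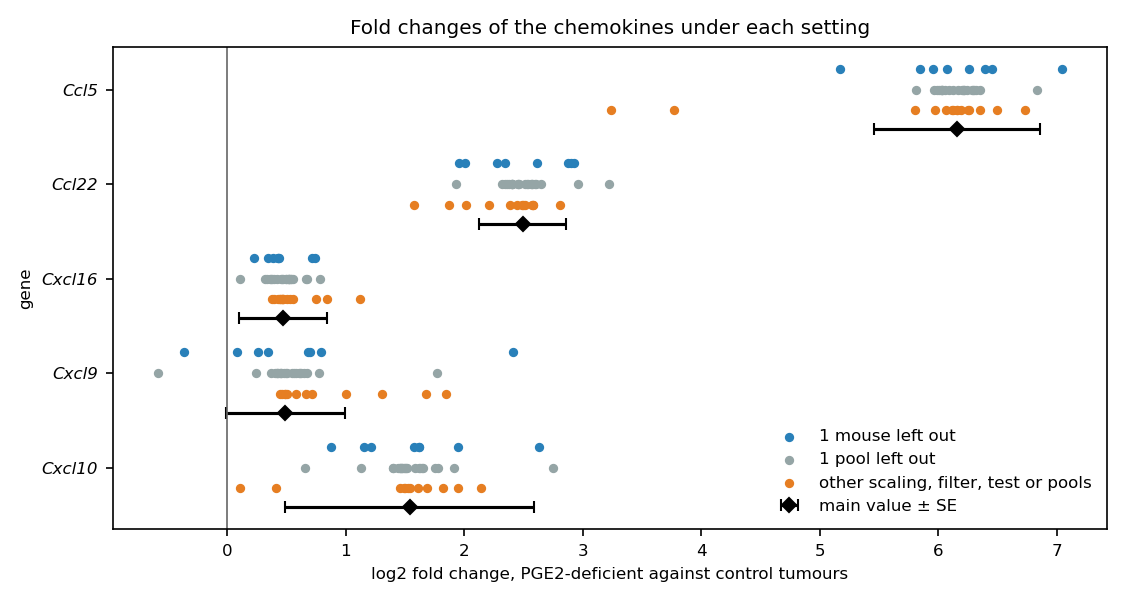
Log2 fold change of each chemokine gene between PGE2-deficient and control tumours under every setting (x axis; genes on the y axis): the main value ± SE (diamond), fits without 1 mouse (blue), without 1 pool (grey) and with other scaling, filter, test or pools (orange). Values lie above 0 throughout for Ccl5, Ccl22, Cxcl16 and Cxcl10, and fall below 0 in 2 fits for Cxcl9.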

How the data were processed

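RNA of sorted cDC1 was measured in 23 pools of 10 cells from 8 mice. The authors deposited raw counts, whole numbers per gene and pool. STAR 2.5.4b and GRCm38 (mm10) are named per the submitters' processing notes. Not given in the sources used here are the counting program, the annotation, the use of strand, and whether reads or molecular identifiers were counted. Without identifiers, reads are not independent molecules, so limits for counts of 0 cover counting error only. The table had 13572 rows, 261 without a count, and 16 symbols turned into dates were restored from their identifiers. No pools were duplicates (chi-squared per degree of freedom at least 2.17).

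The counts of each mouse's pools (technical replicates per the labels) were added up. Genes were filtered with filterByExpr (minimum count 10) and tested with the quasi-likelihood test of edgeR 4.0.16 with TMM scaling; p-values are two-sided and adjusted by Benjamini-Hochberg over every gene tested, with calls below 0.05. Ccl22, Cxcl9 and Cxcl10 failed this filter and were tested in the same way among all 13311 genes with a count. In that fit each gene was given the spread typical of its abundance, without a spread of its own. Single levels were compared as log2(CPM + 10) by exact two-sided permutation over 70 assignments of the mice. A standard error is the fold change over the root of its F value. CPM are relative to the TMM-scaled total of tested genes (80.6% of all counts), and levels per pool use the pool total. DESeq2 1.42.0 and limma 3.58.1 served as alternatives, in R 4.3.3 and Python 3.11.15, with figures drawn in matplotlib 3.10.9. The scripts were tested on simulated data. Positions are from the GENCODE annotation of GRCm38, and exon lengths are the union over transcripts.

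The members, the lists of ligands, receptors, regulators and markers, and the tests were chosen with earlier results of these data known. The text names the 5 members, called genes of the ligand, receptor and regulator lists with the most abundant ligand and receptor, Irf1, Relb and Ptger4, and, per member with at least 30 counts in PGE2-deficient pools, the 5 genes with the most similar pattern (at least 30 counts, in at least 4 pools, without predicted genes and antigen receptor segments). Ccl3, Ccl17, Adam10, Adam17, Dpp4 and Cxcr3, which act with the members, are named beside them. The other ligands below the count filter and the interferon route members with negative values are given as well. Some genes that these rules select are not reported here.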

Additional observations from a re-analysis of the deposited data

Results flagged for a closer look

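The Cxcl9 level of PGE2-deficient mouse 2, at 214 CPM, stood apart from those of the other 3 mice of its group, which ranged from 24.8 to 51.0 CPM. Its gap to the nearest mouse made up 0.861 of the range of the group, and all 18 of its counts came from pool 3. It was 1 such value among the 14 sets of 4 mice examined, and chance alone marks about 1 in 20 sets.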

How the results depend on the processing

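Depth limited Cxcl9 and Cxcl10, which had 0 counts in 1 or more mice. Leaving out 1 mouse or 1 pool, Ccl5 kept its call at log2 fold changes of 5.17 to 7.04 (tested without a filter where pool 2 of PGE2-deficient mouse 3 was left out) and Ccl22 at 1.93 to 3.22, Cxcl16 ranged from 0.11 to 0.79 and Cxcl10 from 0.66 to 2.75, both without a call, and Cxcl9 from −0.58 to 2.41. The exact test of the Ccl5 level cannot pass with 3 mice against 4 (differences 4.88 to 5.94, smallest p 0.0571). Limma-voom ended the call of Ccl5 (3.24) and Ccl22 (1.58), and DESeq2 (2.58) and robust dispersion (2.49) that of Ccl22. Cxcl9 reversed to −0.37 without PGE2-deficient mouse 2 and to −0.58 without its pool 3, and Ccl4 to 0.074 without C1q or pDC pools.

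Higher and lower genes numbered 29 to 67 and 19 to 53 when 1 mouse or pool was left out, 32 and 25 with a minimum count of 20, 110 and 84 without a filter, and 32 and 19 from technical replicates 2 and 3 alone. They numbered 33 and 18 without pools with T cell receptor or CD3 counts (6 genes) and 24 and 10 without C1q or pDC pools. Lower genes numbered 24 with library totals, 79 with limma-voom and 16 without pools with T and NK cell markers other than Klrk1.

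Mouse numbers did not pair the groups (correlations of same-numbered mice −0.089 to 0.100, 1 of 4 highest with its own number). With the mouse number as a replicate block, 45 genes were higher and 28 lower, with Ccl5 at 5.97, Ccl22 at 2.21, Cxcl16 at 0.44, Cxcl9 at 0.72 and Cxcl10 at 1.46, and no call among them changed. Leaving out all pools with 3 or more T and NK cell marker counts, or 10 or more counts of T and NK cell, macrophage and pDC markers, could not be fitted, since these thresholds left out 22 and 20 pools.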
